A study of Mus musculus with 4 samples.

Results

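CatSper is the calcium channel of the sperm tail. The transcripts of 10 genes that encode its subunits were followed in cells sorted from juvenile mouse testes, enriched for spermatocytes. The members were taken by name from the deposited gene tables: the pore-forming subunits *Catsper1*, *Catsper2*, *Catsper3* and *Catsper4*, the transmembrane subunits *Catsperb*, *Catsperd*, *Catsperg1* and *Catsperg2*, and the cytosolic subunits *Tex40* (CatSper zeta) and *Efcab9*. All 10 were found among 24411 rows, and 7 of them had a mean of at least 1 TPM (an abundance scaled to transcript length and to the library total) over the 4 libraries, as did 14512 genes in all. The cells were GFP-positive cells from testes at postnatal day 18, in 2 libraries from *Zfp541*+/− males, used as controls, and 2 libraries labelled *Zfp541* KO, on a strain background that the labels give as C57BL/6 and CBA mixed and the study's methods as C57BL/6. In the KO allele, exons 1 to 13 of *Zfp541*, which encodes a germ-cell zinc-finger protein, were deleted. All animals carried a knock-in allele, *Rec8-3xFLAG-HA-p2A-GFP*, in which GFP is made along with the meiotic cohesin REC8 under its own promoter. One of the control testes was heterozygous for the knock-in and the other homozygous, whereas both testes of the mutant group were homozygous. Which control library is which is not given in the sources used here, so knock-in dosage and library cannot be told apart.

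In mature sperm, CatSper opens at alkaline pH and lets calcium into the flagellum, which drives the hyperactivated beat needed to reach and fertilize the egg. The 4 pore-forming proteins line a single channel, single-pass transmembrane subunits cover it with a large extracellular canopy, and EFCAB9, a calcium-binding EF-hand protein, pairs with the zeta subunit below the pore. The channel works after meiosis, and some of its subunits are transcribed well before the sperm tail is built. The paper describes the sorted cells as enriched for meiotic prophase. Markers of Leydig cells and macrophages were also present (below), so the values are those of a mixed population.

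The start sites of the subunit genes differed in sequence. RefSeq windows of 250 bases before and 50 bases after the annotated start on GRCm38.p6 were found for 8 of the 10 members, *Tex40* under its current symbol *Catsperz*, and *Catsper1* and *Catsperg2* were not matched. The windows below are shown for a pore subunit with abundant transcripts (*Catsper2*), a pore subunit at the detection limit (*Catsper3*), and the 3 subunits whose libraries separated by label (*Catsperb*, *Tex40*, *Efcab9*). Capitals mark CG dinucleotides. The RefSeq start of *Efcab9* lies inside the longer gene of GENCODE.
*Catsper2*, chr2:121413743-121414042, minus strand: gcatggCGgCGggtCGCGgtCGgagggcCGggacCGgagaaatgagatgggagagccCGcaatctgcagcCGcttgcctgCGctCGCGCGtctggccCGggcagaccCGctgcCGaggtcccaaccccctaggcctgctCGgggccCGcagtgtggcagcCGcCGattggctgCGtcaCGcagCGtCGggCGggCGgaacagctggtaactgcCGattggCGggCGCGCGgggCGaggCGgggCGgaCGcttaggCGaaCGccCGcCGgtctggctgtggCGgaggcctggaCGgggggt
*Catsper3*, chr13:55784329-55784628, plus strand: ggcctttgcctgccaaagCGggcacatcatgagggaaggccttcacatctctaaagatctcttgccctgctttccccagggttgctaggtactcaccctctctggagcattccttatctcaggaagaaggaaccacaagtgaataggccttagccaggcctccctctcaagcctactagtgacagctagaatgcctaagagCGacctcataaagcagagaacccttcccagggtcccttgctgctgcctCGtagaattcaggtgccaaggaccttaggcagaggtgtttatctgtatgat
*Catsperb*, chr12:101404423-101404722, plus strand: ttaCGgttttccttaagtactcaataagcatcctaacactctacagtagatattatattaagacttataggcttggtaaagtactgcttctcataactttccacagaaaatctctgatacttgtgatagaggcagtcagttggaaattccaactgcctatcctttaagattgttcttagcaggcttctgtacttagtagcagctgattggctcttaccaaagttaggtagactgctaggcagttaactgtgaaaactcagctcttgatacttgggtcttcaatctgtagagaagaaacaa
*Tex40*, chr19:6925331-6925630, minus strand: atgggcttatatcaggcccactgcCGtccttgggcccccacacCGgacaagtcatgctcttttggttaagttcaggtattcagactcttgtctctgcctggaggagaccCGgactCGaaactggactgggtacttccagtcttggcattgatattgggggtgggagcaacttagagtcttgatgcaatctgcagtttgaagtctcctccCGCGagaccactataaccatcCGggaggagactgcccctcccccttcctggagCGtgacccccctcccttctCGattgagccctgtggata
*Efcab9*, chr11:32527525-32527824, minus strand: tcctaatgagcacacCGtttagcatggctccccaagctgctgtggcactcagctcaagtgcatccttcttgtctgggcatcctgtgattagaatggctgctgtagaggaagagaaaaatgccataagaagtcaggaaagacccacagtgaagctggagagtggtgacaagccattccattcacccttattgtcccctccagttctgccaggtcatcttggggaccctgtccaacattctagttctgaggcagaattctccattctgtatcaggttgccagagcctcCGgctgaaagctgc
The *Catsper2* window held 41 CG dinucleotides, the *Catsper3* window 3, the *Catsperb* window 1, the *Tex40* window 9 and the *Efcab9* window 2. Over all 32851 windows the median was 7, with quartiles of 3 and 20. Of the other matched windows, that of *Catsper4* held 2, those of *Catsperd* 29 and 12, and those of *Catsperg1* 8 and 9. *Catsperb*, with the fewest, had detectable transcripts in every library, whereas *Catsper3* and *Catsper4* were near 0. Whether the number of CG dinucleotides goes with the transcript level was not tested. The *Catsperg1* window carried an X-box core, the kind of element bound by RFX factors, and capitals mark it (the letters CCATGG, any base, then AAC), found on both strands with overlapping matches.
*Catsperg1*, chr7:29213984-29214283, minus strand: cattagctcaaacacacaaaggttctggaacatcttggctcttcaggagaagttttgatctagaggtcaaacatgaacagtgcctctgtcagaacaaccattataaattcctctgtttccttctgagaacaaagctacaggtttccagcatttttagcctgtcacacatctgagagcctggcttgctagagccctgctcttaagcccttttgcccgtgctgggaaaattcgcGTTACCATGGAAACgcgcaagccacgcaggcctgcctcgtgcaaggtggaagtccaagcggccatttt
Of all windows, 1.18% held these letters on either strand, and no other member window did. The half-site TGACG of the cAMP response element was present in the *Catsper2* window and in 1 of the *Catsperd* windows, against 20.8% of all windows. The full palindromic element (1.79% of all windows) was in no member window. The MYB core CNGTT was absent from the *Catsper3* and *Catsper4* windows and present in the windows of the 6 other matched members, but 80.3% of all windows held it.

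The libraries were first checked against their labels. *Zfp541* gave 112 and 72.2 TPM in the controls, against 136 and 151 TPM under the KO label, so the transcript level of the targeted gene went against the label, and each direction below is drawn from the labels alone. *Rec8*, the gene that carries the GFP, gave 7.05, 27.9, 27.7 and 19.4 TPM in the same order. The controls stood apart from each other. The 5 Leydig cell markers summed to 2873 TPM in control 1, 18.0 TPM in control 2, 324 TPM in KO 1 and 491 TPM in KO 2, and the 3 macrophage markers to 416, 4.26, 374 and 277 TPM. Each TPM column adds up to the same total and keeps no depth, so the counting error of each value is unknown. In these bulk libraries, fewer cells that express a gene and less RNA per cell cannot be told apart.

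**Figure D1:**
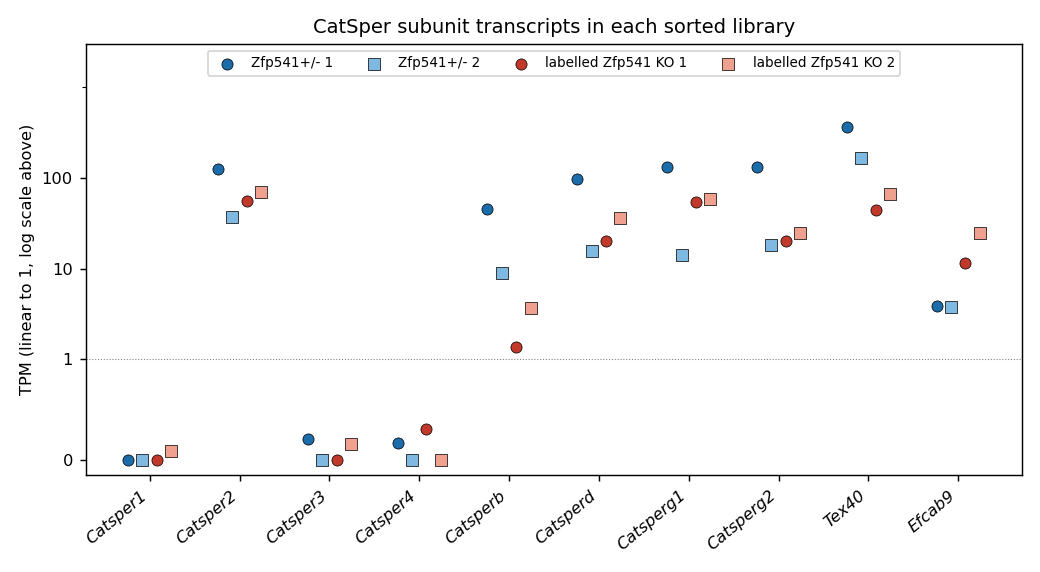
TPM of each CatSper subunit gene (linear from 0 to 1, log scale above), with 1 point for each of the 2 *Zfp541*+/− libraries (blue) and the 2 libraries labelled *Zfp541* KO (red). *Catsper1*, *Catsper3* and *Catsper4* lie below 1 TPM in all 4 libraries, and control 1 is the highest library for 6 of the other 7 genes.

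Of the pore-forming subunits, *Catsper2* alone was above 1 TPM. *Catsper1* (chromosome 19, 5335741 to 5344280, plus strand; all gene positions are from GENCODE M21 on GRCm38, the assembly that UCSC calls mm10) was listed at 0 in both controls and in the library labelled KO 1, and at 0.09 TPM in KO 2. *Catsper3* (chromosome 13, 55784568 to 55808998, plus strand) was listed at 0.21 and 0 TPM in the controls, and at 0 and 0.16 TPM under the KO label. *Catsper4* (chromosome 4, 134211970 to 134227383, minus strand) was listed at 0.17 and 0 TPM in the controls, and at 0.31 and 0 TPM under the KO label. These 3 genes were below the filter of 1 TPM and were not tested. *Catsper2* (chromosome 2, 121392631 to 121413792, minus strand) gave 126 and 37.5 TPM in controls 1 and 2, against 56.2 and 69.5 TPM in libraries labelled KO 1 and KO 2. Both of the latter lay between the controls, and the log2 fold change was -0.14 (limma, SE 0.63, adjusted p = 0.931). No 75-base stretch of the *Catsper1*, *Catsper2*, *Catsper3* or *Catsper4* transcripts, the length of the reads, occurred in transcripts of another gene. Only 18 exonic bases of *Catsper2* were shared with a neighbour, *Pdia3*, on the opposite strand.

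The transcripts of the transmembrane canopy were present in all libraries, and control 1 was the highest library for each of them. *Catsperd* (chromosome 17, 56628143 to 56664456, plus strand), which encodes the delta subunit, gave 97.0 and 15.7 TPM in the control pair, compared with 19.9 and 35.7 TPM in the pair labelled KO. The groups overlapped, and the log2 fold change was -0.55 (limma, SE 0.94, adjusted p = 0.804). *Catsperb* (chromosome 12, 101404653 to 101626009, plus strand), which encodes the beta subunit, gave 45.9 and 8.96 TPM in controls 1 and 2, against 1.38 and 3.63 TPM in libraries labelled KO 1 and KO 2. Both libraries labelled KO were below both controls, the lower control being 2.47 times the higher library labelled KO. The group means were 27.4 ± 26.1 and 2.51 ± 1.59 TPM (SD, n = 2 each). The log2 fold change was -2.70 (limma, SE 0.90, unadjusted p = 0.0362, adjusted p = 0.327), beside a difference of 2.24 between the controls. In *Catsperb*, 6.27% of the 75-base stretches were shared with *Gm18795*.

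The gamma subunit is encoded in the mouse by a pair of paralogous genes on the minus strand of chromosome 7, *Catsperg1* (29181321 to 29214035) and *Catsperg2* (29697219 to 29727032). *Catsperg1* gave 131 and 14.1 TPM in the control pair, compared with 54.0 and 58.3 TPM in the pair labelled KO. *Catsperg2* gave 133 and 18.4 TPM in controls 1 and 2, against 20.3 and 24.7 TPM in libraries labelled KO 1 and KO 2. Both genes thus had the libraries labelled KO between the controls, which were 9.34-fold and 7.19-fold apart. The log2 fold change was 0.35 for *Catsperg1* (limma, SE 1.09, adjusted p = 0.898) and -1.12 for *Catsperg2* (limma, SE 0.98, adjusted p = 0.610). The group means of *Catsperg1* went the other way, at 72.7 ± 83.0 TPM in the controls and 56.1 ± 3.07 TPM under the KO label (SD, n = 2 each). Between the controls, the ratio of the paralogues differed less than either level did. *Catsperg1* was 0.991 and 0.763 times *Catsperg2* in the controls and 2.65 and 2.36 times *Catsperg2* in the libraries labelled KO, with no overlap between the groups. This ratio does not depend on how a library is scaled, and its log2 difference was 1.52 (exact permutation test over the 4 libraries, two-sided, p = 0.333, the smallest p that 2 against 2 allows). The paralogues share 2762 of their 75-base stretches, 31.6% of those of *Catsperg1* and 32.7% of those of *Catsperg2*. Reads from these stretches were divided between the genes by the authors' estimation, so the level of each gene and the ratio are uncertain.

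The cytosolic pair differed between labels in opposite directions, though neither gene passed an FDR of 0.05. *Tex40* (chromosome 19, 6922371 to 6925380, minus strand) was the most abundant member in the controls, with 361 and 167 TPM, and gave 44.3 and 67.0 TPM under the KO label. Both libraries labelled KO were below both controls, by 2.49-fold between the nearest libraries. The group means were 264 ± 137 and 55.7 ± 16.1 TPM (SD, n = 2 each). The log2 fold change was -2.15 (limma, SE 0.46, unadjusted p = 0.00793, adjusted p = 0.310). *Efcab9* (chromosome 11, 32522751 to 32532081, minus strand) was the one tested member that was not highest in control 1. It gave 3.82 and 3.76 TPM in the control pair, compared with 11.4 and 24.8 TPM in the pair labelled KO, above both controls by 2.98-fold between the nearest libraries. The means were 3.79 ± 0.042 and 18.1 ± 9.47 TPM (SD, n = 2 each). The log2 fold change was 1.90 (limma, SE 0.49, unadjusted p = 0.0159, adjusted p = 0.314). The controls differed by 0.018 on the log2 scale in *Efcab9*, and the libraries labelled KO by 1.06.

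*Efcab9* was 0.0106 and 0.0225 times *Tex40* in the controls and 0.257 and 0.370 times *Tex40* in the libraries labelled KO. The groups did not overlap, and the log2 difference of the ratio was 4.32 (exact permutation test, two-sided, p = 0.333, again the smallest possible). The pair was thus closer to equal levels in the libraries labelled KO, where *Tex40* was still 3.89 and 2.71 times *Efcab9*. No 75-base stretch of *Efcab9* was shared with another gene. For *Tex40*, 29.2% of the stretches were shared with *Kcnk4*, a potassium channel gene whose exons overlap 46.5% of the *Tex40* exonic bases on the same strand. *Kcnk4* was listed at 0.14 and 0 TPM in the controls, and at 0.53 and 0.32 TPM under the KO label, far below *Tex40* in every library.

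**Figure D2:**
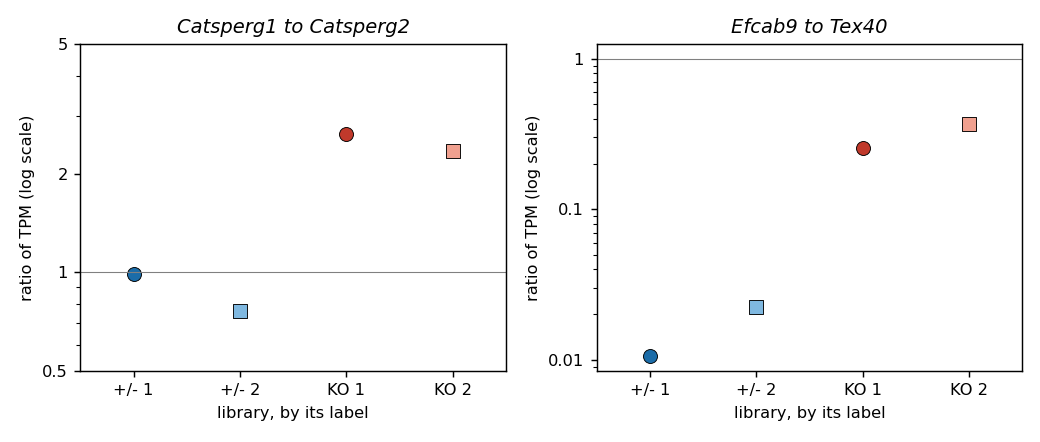
Ratio of TPM within each library (log scale) for the gamma subunit paralogues (left) and for *Efcab9* over *Tex40* (right), with 1 point for each library and a line at equal levels. The libraries labelled *Zfp541* KO lie above both controls in each panel, at 2.65 and 2.36 on the left and at 0.257 and 0.370 on the right.

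Across the family, none of the 7 members tested passed an FDR of 0.05 in limma, and the background was 0.0% of genes called higher and 0.0% called lower. At an unadjusted p under 0.05, 2 members were lower and 1 was higher, against 3.73% and 10.7% of all genes tested. Both libraries labelled KO lay below both controls in 2 of the 7 members (background 12.1%) and above both in 1 (background 38.6%). The 7 members had a median log2 fold change of -0.55, and all genes tested had one of 0.28. Median-ratio scaling gave -0.87 for the members beside -0.015 for all genes, and quantile normalization gave -0.89 beside 0.077. Without a filter, the median of all 10 members was -0.086, beside 0.018 for all 24411 genes. The median of the members turned with the control, at 0.72 against control 2 alone and at -1.82 against control 1 alone. Median-ratio scaling, which centres the libraries on a common set of genes, placed 3 members below both controls, the third being *Catsperg2*. This scaling also moved the median of all genes down, from 0.28 to -0.015. The share of all genes below both controls was not counted under it, so the 3 members cannot be set beside the 12.1%.

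**Figure D3:**
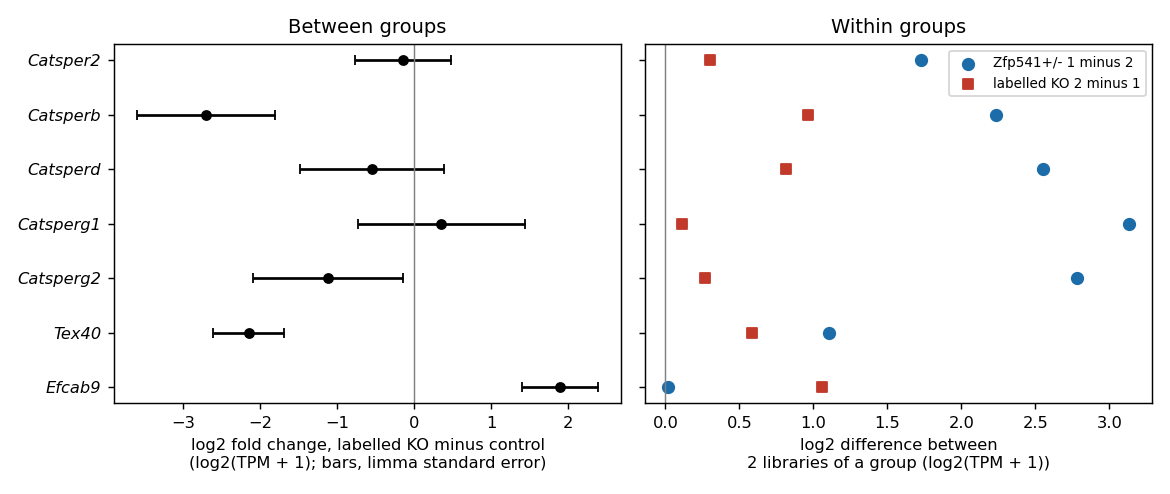
Left, log2 fold change of the 7 tested members between libraries labelled *Zfp541* KO and controls, with limma standard errors. Right, log2 difference between the 2 libraries of each group, in which the controls differ by more than 1.7 in 5 genes, by 1.11 in *Tex40* and by 0.018 in *Efcab9*.

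The controls lay farther apart than the libraries labelled KO in 6 of the 7 members, all but *Efcab9*. Control 1 exceeded control 2 by more than 2-fold in 6 of the 7 members (31.3% of all genes tested had controls more than 2-fold apart in either direction). Control 1 was the highest of the 4 libraries in 6 of 7, where 32.3% of all genes had their highest value. In 4 of the 7, *Catsper2*, *Catsperd*, *Catsperg1* and *Catsperg2*, the controls differed by more than the groups did, as they did in 61.6% of all genes. *Tex40*, *Catsperb* and *Efcab9* were the members in which the change between groups was larger than the gap between controls.

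Leaving out a control changed calls. Without control 1, limma gave adjusted p = 0.0195 for *Tex40* (log2 fold change -1.60), 0.0479 for *Efcab9* (1.91), 0.0092 for *Catsperg1* (1.92) and 0.0368 for *Catsper2* (0.72). Without control 2, it gave 0.0226 for *Tex40* (-2.70), 0.0243 for *Catsperb* (-3.82), 0.0319 for *Catsper2* (-1.01), 0.0442 for *Catsperd* (-1.82) and 0.0224 for both *Catsperg1* (-1.21) and *Catsperg2* (-2.51). In these fits the spread came from the libraries labelled KO alone, and the lone control was assumed to vary like them. Without control 1, 3 members were called higher and 1 lower, where 38.7% and 9.47% of all genes were. Without control 2, 0 members were called higher and 6 lower, where 15.5% and 12.9% of all genes were. Without either library labelled KO, no gene passed in limma, and the adjusted p was 1.0 for *Tex40* and for each of the other members tested. *Tex40* kept its direction in all 4 of these fits and passed in 2, whereas the sign of *Catsper2* and *Catsperg1* turned with the control.

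The summed level of the 10 members was 898 and 266 TPM in the controls, against 208 and 284 TPM under the KO label. Markers of meiotic stages also differed. The 8 mid to late pachytene markers summed to 6991 and 3443 TPM in the controls, against 2135 and 3105 TPM under the KO label. Of these sums, *Ldhc* alone gave 3659 and 1819 TPM in the controls, against 768 and 1230 TPM. In 4 of the 8, both libraries labelled KO were below both controls (12.1% of all genes tested were), and 4 overlapped. All 8 were highest in control 1 (32.3% of all genes were), as the canopy subunits were. The 8 markers of leptotene and zygotene summed to 1258 and 1456 TPM in the controls, against 2349 and 2486 TPM under the KO label, with *Hormad1* and *Sycp2* the most abundant. Of these 8, 0 passed the FDR, and 6 were above both controls in both libraries labelled KO (38.6% of all genes tested were). *Spo11* and *Rec114* overlapped. The 3 markers of the sorted population, *Rec8*, *Sycp3* and *Sycp1*, summed to 1564 and 1917 TPM in the controls, against 3016 and 3220 TPM under the KO label. The 8 spermatid markers summed to 20.3 and 19.4 TPM in the controls, against 38.2 and 36.5 TPM under the KO label. *Spaca1* alone gave 7.34 and 13.9 TPM in the controls, against 27.0 and 26.6 TPM. Of the 3 with a mean of at least 1 TPM, both libraries labelled KO were above both controls in 2 (38.6% of all genes tested were), and 1 overlapped. In control 2, 6 of the 8 were listed at 0. The part of cell stage and of Leydig cells or macrophages in the values of the members was not tested.

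**Figure D4:**
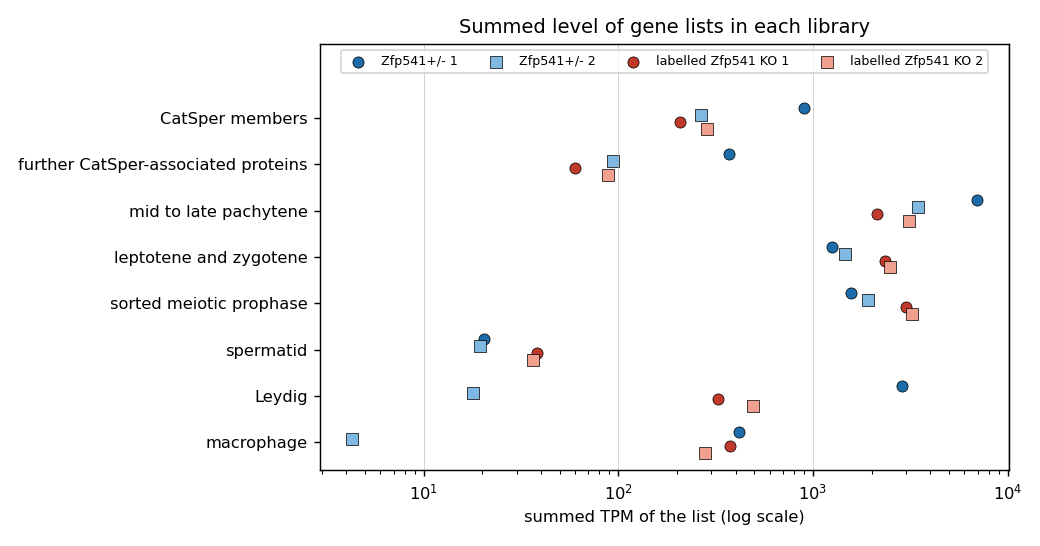
Summed TPM (log scale) of 8 gene lists in each of the 4 libraries. Control 1 is highest for the CatSper lists (898 TPM for the members) and for the mid to late pachytene, Leydig cell and macrophage markers. Control 2 is lowest for the Leydig cell and macrophage markers, at 18.0 and 4.26 TPM.

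Further proteins known to associate with the channel were read from a list of symbols, and 4 genes were found. *Slco6c1*, an organic anion transporter that is found with CatSper, gave 92.3 and 13.4 TPM in controls 1 and 2, against 0.19 and 1.21 TPM in libraries labelled KO 1 and KO 2. Both of the latter were below both controls (limma, log2 fold change -4.50, SE 1.03, adjusted p = 0.310). *Trim69*, a TRIM family protein also found with CatSper, gave 89.9 and 19.2 TPM in the control pair, compared with 4.82 and 6.37 TPM in the pair labelled KO (limma, log2 fold change -2.71, SE 0.80, adjusted p = 0.319). It too separated the groups, with the libraries labelled KO lower. *Als2cr11*, the former symbol of *C2cd6*, which encodes the C2-domain subunit tau, gave 149 and 53.6 TPM in controls 1 and 2, against 44.4 and 64.2 TPM in libraries labelled KO 1 and KO 2. *Gm16432*, the former symbol of the epsilon subunit gene *Catspere2*, gave 40.9 and 7.69 TPM in the control pair, compared with 10.5 and 16.3 TPM in the pair labelled KO. The groups overlapped in both. Of the 4 genes, 0 passed the FDR and 2 were below both controls in both libraries labelled KO (12.1% of all genes tested were), and all 4 were highest in control 1 (32.3% of all genes were).

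Of 11 genes that carry ions or signals beside CatSper in sperm, 7 had a mean of at least 1 TPM, and 0 passed the FDR. Control 1 was highest in all 7 (32.3% of all genes tested), and both libraries labelled KO were below both controls in 3 of 7 (12.1% of all genes). *Slc9c1*, the sperm sodium-proton exchanger, gave 46.6 and 4.15 TPM in controls 1 and 2, against 0.58 and 1.41 TPM in libraries labelled KO 1 and KO 2 (limma, log2 fold change -3.00, SE 1.17, adjusted p = 0.360). Both libraries labelled KO were below both controls, as in *Slc9b1*, another sodium-proton exchanger, which was at 109 and 36.1 TPM against 26.2 and 32.9 TPM. *Prkaca*, the catalytic subunit of protein kinase A, gave 129 and 112 TPM in the controls, against 110 and 103 TPM under the KO label, which were also below both controls but by a small margin. *Adcy10*, the bicarbonate-sensitive adenylyl cyclase, gave 24.0 and 3.35 TPM in the control pair, compared with 2.56 and 3.59 TPM in the pair labelled KO. *Atp2b4*, a plasma membrane calcium pump, was at 46.4 and 9.27 TPM against 15.4 and 14.8 TPM. The libraries labelled KO lay between the controls in *Atp2b4*, as they did in *Hvcn1*, a proton channel (18.2 and 3.22 TPM against 11.6 and 11.4 TPM), and in *Abhd2*, a progesterone-dependent lipase (19.1 and 3.92 TPM against 11.2 and 12.0 TPM). *Kcnu1* and *Lrrc52*, the pore and an auxiliary subunit of the sperm potassium channel, were at or below 1.25 and 0.23 TPM in every library.

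The genes whose profile was most like the mean profile of the 7 tested members were sought among 11504 others with a mean of at least 5 TPM, by the Euclidean distance of centred log2(TPM + 1) over the 4 libraries. They were *Rgs22* (distance 0.10), *Dlec1* (0.11) and *Cd55b* (0.13). *Rgs22* gave 129 and 32.4 TPM in controls 1 and 2, against 36.9 and 52.5 TPM in libraries labelled KO 1 and KO 2, and *Dlec1* and *Cd55b* had the same order of libraries or a tie between control 2 and KO 1. Among the members, *Catsperd* was nearest to the mean profile (0.47) and *Efcab9* was farthest from it (2.89).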

How the data were processed

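RNA-seq of GFP-positive testis cells at postnatal day 18 was available for 2 *Zfp541*+/− libraries and 2 libraries labelled *Zfp541* KO. According to the submitters' processing notes and the methods, the authors trimmed single-end 75 nt reads with Trim Galore 0.5.0 (cutadapt 1.16), aligned them to mm10 with STAR 2.6.0a and deposited TPM per gene from RSEM 1.3.1. TPM keeps no depth, and RSEM divides reads that match several genes. Whether the libraries of a group came from separate litters is not given, so p-values measure the spread between these samples only.

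Genes whose mean reached 1 TPM were compared on log2(TPM + 1), a scale that understates the change of low genes, with limma 3.58.1 in R 4.3.3 (mean-variance trend, Benjamini-Hochberg adjustment over all genes tested). Ratios of members were compared by an exact permutation test in Python 3.11.15. Of 5 ratios planned, 3 had *Catsper1* as the denominator, listed at 0 in 3 libraries, and could not be formed. The fit was tested on simulated data for 14512 genes, of which 200 were given a known log2 change, and it recovered 0 of the 200 at a change of 2, 91 at 4 and 164 at 6. Shared stretches and overlaps came from GENCODE M21, start-site windows from RefSeq. The text names all 10 members, genes of 3 lists with a mean of at least 5 TPM, *Zfp541*, *Rec8* and the 3 nearest profiles, besides *Kcnk4*, *Pdia3*, *Gm18795*, *Kcnu1*, *Lrrc52* and some stage markers, which were added after their values or overlaps were seen. Members and lists were chosen with earlier results of these data known. Alternatives covered the pseudocount, filter, scaling, variance model, replicate block and each library left out.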

Additional observations from a re-analysis of the deposited data

How the results depend on the processing

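With 2 libraries a group and no depth, no change seen here passed an FDR of 0.05 in the main fit. In the simulation, 0 of the 200 genes given a log2 change of 2 passed. It changed 200 of 14512 genes, and with another share of changed genes the recovery could differ. False calls numbered 2 at a log2 change of 4 and 5 at a change of 6. The spread was drawn separately for each gene and library, so a control that differs over many genes together was not simulated. Calls over all genes numbered 0 higher and 0 lower under pseudocounts of 0.1 and 5, a mean of at least 5 TPM, both scalings, no trend and the replicate block, beside 1549 higher and 542 lower at an unadjusted p under 0.05. Without a filter they were 1 higher and 1 lower. The replicate numbers of the labels were not shown to pair the samples (deviations correlated at -0.16), and with the replicate block the adjusted p was 0.566 for *Tex40* and 0.629 for both *Efcab9* and *Catsperb*. With crossed numbers as the block, added after seeing the data, 7 genes were higher and 80 lower.

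With each library left out in turn, calls ranged from 0 to 5610 higher and from 0 to 1875 lower, since a lone control takes its spread from the libraries labelled KO. The median log2 fold change of the members tested ranged from -1.82 to 0.72. Members above the controls kept in a setting numbered 1 to 5, and members below them 2 to 6. The 5 were above control 2 alone and the 6 below control 1 alone. Shares of all genes were not counted in these settings. The log2 fold change ranged from -1.01 to 0.72 for *Catsper2* (also 0.0086 without KO 1), from -1.82 to 0.73 for *Catsperd*, from -1.21 to 1.92 for *Catsperg1* and from -2.51 to 0.27 for *Catsperg2*, so these 4 turned in sign with control 1 or 2. *Catsperb* stayed between -3.82 and -1.59, *Tex40* between -2.70 and -1.60, and *Efcab9* between 1.37 and 2.43. The log2 difference of the ratio of *Catsperg1* to *Catsperg2* stayed between 1.34 and 1.71 and that of *Efcab9* to *Tex40* between 3.78 and 4.86. Under the other alternatives no member changed sign, though *Catsperg1* was at 0.030 with median-ratio scaling and at 0.021 with quantile normalization. The adjusted p for *Tex40* in limma under these alternatives ranged from 0.0326 with the crossed block to 0.566. With libraries left out it was 0.0195 without control 1, 0.0226 without control 2 and 1.0 without either library labelled KO.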

Other observations

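Cation channels of other families were present at low to moderate levels beside CatSper. Of 12 genes for voltage-gated calcium and 2-pore channels, 7 had a mean of at least 1 TPM, and 0 passed the FDR in limma (0 at an unadjusted p under 0.05). Both libraries labelled KO were above both controls in 3 of the 7 (38.6% of all genes tested), *Cacna1a*, *Cacna1b* and *Cacna1c*, named after their values were seen, and below both in 0. *Cacna1b* gave 1.31 and 1.70 TPM in the controls, against 2.44 and 2.55 TPM under the KO label. *Cacna1h*, which encodes a T-type calcium channel, gave 45.2 and 4.11 TPM in the control pair, compared with 11.6 and 11 TPM in the pair labelled KO. The 2-pore channel gene *Tpcn1* was at 26.8 and 6.18 TPM against 21.7 and 21.9 TPM, and *Tpcn2* at 14.3 and 4.46 TPM against 10.8 and 9.59 TPM. In these last 3 genes the libraries labelled KO lay between the controls, as they did in *Catsper2*, *Catsperd*, *Catsperg1* and *Catsperg2*. Control 2 was the lowest library for the same 3 genes, and 53.6% of all genes tested had their lowest value there.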
